A study of Homo sapiens with 18 samples.

Results

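MEF2C encodes a MADS-box transcription factor, and the gene was described here through every listed interval of 4 histone marks that overlaps its gene body or the 150 kb on either side. The gene occupies chr5:88717117-88904257 in hg38, on the minus strand, and the window taken around it is 487 kb long. The window held 27 of 74559 listed intervals for H3K27ac, 46 of 108165 for H3K4me1, 35 of 59230 for H3K4me3 and 21 of 33437 for H3K27me3. Intervals within 2 kb of the start of an annotated MEF2C transcript were taken as promoter intervals, other intervals over the gene as intragenic, and those in the 3′ and the 5′ flank were kept apart. The region was chosen for the low H3K27me3 p-value of a domain in it, in PR-957 against DMSO, so the H3K27me3 contrast in the window is given as a description, with no p-value, and nothing is read from how many of its intervals passed a threshold. That domain has lower coordinates than MEF2C, but the gene is read towards it, and it therefore lies in the 3′ flank and not upstream of the gene.

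The data are Cut&Tag libraries, made by tethering Tn5 transposase to an antibody so that it cuts and tags the DNA beside a histone mark. The cells were MOLM-13, an established line from acute myeloid leukemia that carries a rearranged KMT2A gene. Cells received 100 nM of PR-957 (ONX-0914), an inhibitor of the immunoproteasome subunit PSMB8, or its diluent DMSO. The labels give 72 h of treatment for both, and the legend of the study's heatmaps gives a shorter time. Each mark has 2 libraries per treatment, all from this 1 cell line, and the labels do not say whether they came from separate cultures, so the p-values measure only the spread between these libraries. In bulk cells, a mark carried by fewer cells and less of the mark in each cell cannot be told apart.

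MEF2 proteins bind DNA as dimers and activate transcription unless class IIa histone deacetylases hold them in check, and kinases that phosphorylate these deacetylases or MEF2C itself relieve that block. MEF2C takes part in myeloid progenitor and lymphoid development and is a target of rearranged KMT2A in leukemia. H3K4me3 and H3K27ac mark active transcript starts, H3K4me1 marks enhancers and the edges of promoters, and H3K27me3, laid down by Polycomb repressive complex 2, covers silent developmental genes. The 3′ flank of MEF2C holds the start of LINC00461, a long noncoding RNA gene that hosts MIR9-2, which encodes the neuronal microRNA miR-9, and the start of the antisense RNA MEF2C-AS2.

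The H3K27me3 domain covers MIR9-2, and the mature arms of this microRNA are shown for that reason, with the seed (bases 2 to 8) in capitals. The RefSeq entries (GRCh38.p14) of MIR9-1, MIR9-2 and MIR9-3 give 1 sequence for each arm, so that counts in DNA can be told apart by locus although the mature RNA cannot.
hsa-miR-9-5p: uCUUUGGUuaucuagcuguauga
hsa-miR-9-3p: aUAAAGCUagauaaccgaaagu

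Of the promoters in the window, 3 with different marks are shown: the canonical MEF2C start, which carried H3K27ac and H3K4me3, an internal MEF2C start that carried less of both, and the MEF2C-AS2 start inside the H3K27me3 domain. They are shown as the 250 bases before and 50 bases after the RefSeq start, with each CpG in capitals, since CpG-dense starts are the usual sites of both H3K4me3 and Polycomb.
MEF2C canonical start, chr5:88883135-88883434, minus strand: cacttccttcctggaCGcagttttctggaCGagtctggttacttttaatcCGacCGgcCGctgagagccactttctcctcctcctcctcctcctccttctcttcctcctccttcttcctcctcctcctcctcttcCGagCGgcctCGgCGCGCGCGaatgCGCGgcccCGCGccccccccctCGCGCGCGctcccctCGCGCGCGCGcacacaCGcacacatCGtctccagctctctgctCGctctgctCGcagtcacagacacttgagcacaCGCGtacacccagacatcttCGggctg
MEF2C internal start, chr5:88827143-88827442, minus strand: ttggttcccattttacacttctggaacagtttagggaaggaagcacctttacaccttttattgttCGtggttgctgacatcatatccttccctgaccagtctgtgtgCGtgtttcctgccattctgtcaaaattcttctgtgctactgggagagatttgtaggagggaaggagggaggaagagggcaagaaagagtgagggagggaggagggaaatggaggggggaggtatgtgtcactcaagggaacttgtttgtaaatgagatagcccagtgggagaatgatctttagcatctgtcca
MEF2C-AS2 start, chr5:88675968-88676267, plus strand: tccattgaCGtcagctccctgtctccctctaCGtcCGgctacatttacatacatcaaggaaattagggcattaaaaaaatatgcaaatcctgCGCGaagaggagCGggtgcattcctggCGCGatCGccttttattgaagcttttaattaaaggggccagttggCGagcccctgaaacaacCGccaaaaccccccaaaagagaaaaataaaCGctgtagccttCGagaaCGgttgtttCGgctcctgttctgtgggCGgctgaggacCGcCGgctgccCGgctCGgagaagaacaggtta

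The canonical MEF2C promoter held 32 CpG, more than 81.1% of 35116 promoters of this length, whose median was 14. The MEF2C-AS2 promoter held 20 CpG and the internal MEF2C promoter 2. Of 4 motifs searched on both strands, chosen after these sequences had been read, the MEF2C-AS2 promoter held 1 CRE (TGACGTCA, in 1.85% of promoters) and the canonical and the internal MEF2C promoter 2 and 1 PU.1 motifs (GAGGAAG, in 13.6%). AP-1 (TGANTCA, in 7.71%) and RUNX (TGTGGT, in 13.1%) were in none of these 3.

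Libraries held between 9885836 and 14165777 counts for H3K27ac, between 10032503 and 12047958 for H3K27me3, between 15204186 and 30584219 for H3K4me1 and between 30070119 and 44591150 for H3K4me3. Levels are given as CPM, the count scaled by the TMM-adjusted library size. All 8 myeloid markers (SPI1, CEBPA, CD33, MPO, CSF1R, ITGAM, FLT3 and LYZ) had an H3K27ac interval at a start, 0 had H3K27me3 and edgeR called 0 in any mark. Among all protein-coding genes read at a start, 3874 had a tested H3K27me3 interval and 12086 a tested H3K27ac interval. EdgeR called 0.480% of such genes in H3K27ac, 2.15% in H3K4me1 and 0.219% in H3K4me3. With shares this small, nothing is read from 0 of 8. Of the markers of other lineages, CD3E, GATA1, EPCAM and ALB had no listed H3K27ac interval at a start. PAX5 had one at 1.06 CPM in DMSO, where the myeloid markers ran from 2.56 CPM (ITGAM) to 113 CPM (CEBPA). H3K4me3 split the lists less cleanly. MPO had no listed H3K4me3 interval at a start, and CD3E, GATA1 and ALB had none either. EPCAM had one at 1.03 CPM in DMSO. PAX5 had one at 15.8 CPM, above CSF1R (6.33), LYZ (9.44) and ITGAM (1.66) and below SPI1, CEBPA, CD33 and FLT3.

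H3K27me3 was listed in the 3′ flank of MEF2C and nowhere else in the window. Its 21 intervals fell into 6 loci, and the one domain of high signal, chr5:88659013-88696975, spanned 38 kb in 8 overlapping intervals. It ends 20.1 kb from the 3′ end of MEF2C and 186 kb from the canonical MEF2C start. There were 0 H3K27me3 intervals over the MEF2C gene body and 0 in its 5′ flank. The last one before the gene ends 13.0 kb from its 3′ end, and the next listed one beyond the gene starts 1647 kb from its 5′ end. The domain holds 42 of the 45 annotated LINC00461 transcript starts, all 6 of MEF2C-AS2 and MIR9-2 itself, and 0 MEF2C starts.

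**Figure D1:**
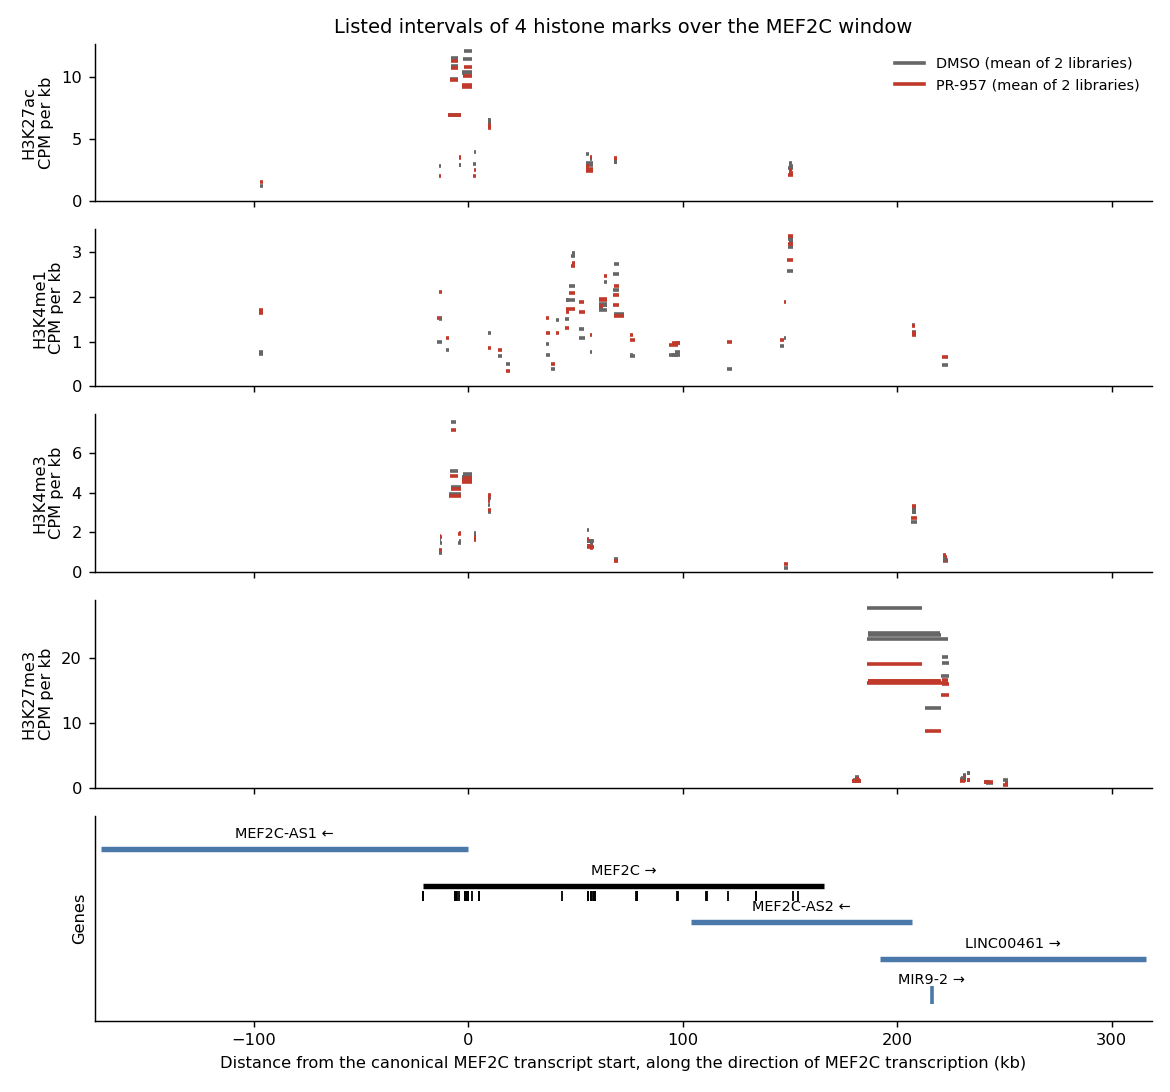
Level of 4 histone marks over the MEF2C window, as the mean CPM per kb of 2 DMSO (grey) and 2 PR-957 libraries (red) for each listed interval, against the distance from the canonical MEF2C start along its transcription in kb. Black ticks mark MEF2C transcript starts and arrows the direction of each gene. H3K27ac and H3K4me3 are highest at the canonical start and just 5′ of it, and the H3K27me3 domain lies beyond the 3′ end of the gene, over MIR9-2 and the MEF2C-AS2 start.

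The widest interval, chr5:88659267-88696965, had 885 and 842 CPM with DMSO, and with PR-957 it had 607 and 608 CPM. The means were 863 ± 30.6 in DMSO and 608 ± 1.17 in PR-957 (SD, n = 2), a ratio of 0.704 and a fitted log2 fold change of -0.51 (SE 0.046). Both PR-957 libraries lay below both DMSO libraries, which is the difference the region was chosen by. The interval took 0.0835% and 0.0798% of all counts with DMSO against 0.0631% and 0.0654% with PR-957. The libraries of the treatments thus separated by library size alone as they did under TMM. Scaling did change the size: TMM placed the median H3K27me3 interval 0.16 lower on the log2 scale than library size alone, under which the domain had -0.35, and cyclic loess offsets gave -0.29. The edgeR fit called 5 of the 21 window intervals, all lower, against 5.09% of all 31806 tested H3K27me3 intervals called lower and 5.92% called in either direction. These 5 are the overlapping domain intervals that reach beyond its first block. Since this domain chose the region by the same contrast, no excess over that share is read from the count.

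Inside the domain, 3 intervals that do not overlap split it into blocks. The first block, chr5:88659013-88662527, holds 3 LINC00461 starts and had 64.5 and 57.4 CPM in DMSO against 47.0 and 53.9 in PR-957 (log2 fold change -0.26, SE 0.088). The second block, chr5:88662870-88670299, holds MIR9-2 and had 98.6 and 84.9 CPM against 63.7 and 68.1 (-0.47, SE 0.076). The third block, chr5:88671318-88696975, holds the MEF2C-AS2 starts and 38 LINC00461 starts and had 718 and 698 CPM against 496 and 486 (-0.53, SE 0.047). On this TMM scale the PR-957 libraries were lower than the DMSO libraries in each block. As shares of all counts, which is scaling by library size alone, the second and the third block still separated. The first had 0.00608% and 0.00544% with DMSO against 0.00489% and 0.00579% with PR-957, which overlap. Scaled by library size only, the log2 fold changes were -0.10, -0.31 and -0.37. The block of MIR9-2 had -0.27 with offsets against GC, and the third block -0.32 with cyclic loess. Per kb, the third block was the densest in every library, with 28.0 and 27.2 CPM per kb in DMSO and 19.3 and 18.9 in PR-957. The block of MIR9-2 was the least dense, with 13.3 and 11.4 in DMSO and 8.58 and 9.17 in PR-957. The count per kb of the third block was 1.53 and 1.67 times that of the first in DMSO and 1.44 and 1.23 times in PR-957.

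The domain was among the larger ones of these cells. Of 13899 merged H3K27me3 loci it was 111th by span and 45th by CPM in DMSO. Among the 494 loci of at least 20 kb it ranked 46th by density, with 22.9 CPM per kb against a median of 7.08. It held 30.1 CpG per kb against a median of 24.9, with 139 wide loci higher, while its GC content of 45.3% lay below their median of 52.5%. In 1 kb bins the domain had a median of 27 CpG, against 7 over the MEF2C gene body. As a description of the contrast that chose it, on the TMM scale, 14 of the 494 wide loci had a lower log2 fold change than the domain. The median was -0.12 over the wide loci and 0.10 over all loci. The other 89 wide loci within 1.5-fold of its density had a median of -0.32, with 83 below 0 and 0 below the domain.

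The other 3 marks were measured in libraries that did not choose the domain. H3K27ac had 0 intervals in it. H3K4me1 had 4 intervals in 2 loci and H3K4me3 7 intervals in 2 loci, of which edgeR called 0, with 0 at an unadjusted p under 0.05. The 7 were not called by DESeq2 either, and it gave the 4 no adjusted p. Over all tested intervals edgeR called 1.94% in H3K4me1 and 0.226% in H3K4me3. With so few intervals, 0 called is not read as a result about the domain. The main H3K4me3 interval, chr5:88674071-88676684, spans the MEF2C-AS2 start shown above and had 7.29 and 5.96 CPM in DMSO and 7.16 and 7.07 in PR-957. The groups overlapped, and the log2 fold change was 0.10 (SE 0.14, adjusted p = 0.937 in edgeR). H3K4me1 at the same start, chr5:88674113-88676285, had 2.57 and 2.63 CPM in DMSO and 2.95 and 2.09 in PR-957, which also overlap (log2 fold change -0.071, SE 0.29, adjusted p = 0.932 in edgeR). H3K4me3 and H3K4me1 thus lay at the MEF2C-AS2 start inside the H3K27me3 domain in both treatments. The same intervals also represent LINC00461, which has a start within 2 kb of them, so these marks cannot be assigned to either gene alone. The second locus of both marks lay over the LINC00461 starts of the first block, at 1.57 and 1.01 CPM of H3K4me3 in DMSO and 1.18 and 1.65 in PR-957, which overlap. H3K4me1 there, chr5:88659435-88662068, had 1.15 and 1.34 CPM in DMSO and 1.93 and 1.57 in PR-957, higher in both PR-957 libraries, and did not pass the test (log2 fold change 0.48, SE 0.41, adjusted p = 0.600 in edgeR). Such marks on the same DNA in bulk cells may lie on the same or on different chromosomes of the population, and which was not tested.

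MEF2C itself has 57 annotated transcripts that begin at 52 distinct positions, which fall into 13 groups separated by more than 2 kb. H3K27ac lay within 2 kb of 5 of these groups, H3K4me3 of 4, H3K4me1 of 7 and H3K27me3 of 0. The group that holds the canonical start has 17 transcripts, and it carried the interval that represents MEF2C in both H3K27ac and H3K4me3. The 6 transcripts that start farthest 5′, chr5:88904052-88904257, had no listed interval of any of the 4 marks.

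At the canonical promoter, the H3K27ac interval chr5:88881217-88885789 had 44.5 and 49.4 CPM in DMSO and 38.2 and 46.0 in PR-957. The means were 47.0 ± 3.46 and 42.1 ± 5.50 (SD, n = 2), the libraries of the treatments overlapped, and the log2 fold change was -0.14 (SE 0.091, adjusted p = 0.753 in edgeR). H3K4me3 over chr5:88881122-88885801 had 20.4 and 23.8 CPM in DMSO and 20.5 and 22.1 in PR-957. The log2 fold change was -0.057 (SE 0.083, adjusted p = 0.939 in edgeR), and the groups overlapped. No H3K4me1 interval was listed for 18.2 kb around this start, from 9.24 kb on its 3′ side to 8.92 kb on its 5′ side. Per kb, MEF2C stood at 10.3 CPM of H3K27ac in DMSO, higher than 91.5% of 12091 protein-coding genes with an interval, and at 4.73 CPM of H3K4me3, close to the median of 4.59.

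The next start group on the 5′ side, chr5:88887590-88889324, has 6 transcripts, 0 of them protein-coding, and stood at similar levels. H3K27ac over chr5:88886310-88892301 had 44.2 and 39.0 CPM in DMSO and 38.7 and 44.8 in PR-957 (log2 fold change 0.0085, SE 0.094, adjusted p = 0.994 in edgeR). H3K4me3 over chr5:88886485-88891868 had 20.6 and 21.8 CPM in DMSO and 21.8 and 19.7 in PR-957 (log2 fold change -0.030, SE 0.084, adjusted p = 0.969 in edgeR). The treatments overlapped in both of these intervals. Narrower listed intervals of the group went either way, from 0.40 (SE 0.31, adjusted p = 0.845 in edgeR) for H3K4me3 over chr5:88886356-88887621 to -0.080 (SE 0.090, adjusted p = 0.910 in edgeR) over chr5:88888792-88891180, both with separate groups. The internal promoter shown above was weaker: H3K27ac over chr5:88824781-88828065 had 10.6 and 8.37 CPM in DMSO and 7.55 and 8.30 in PR-957 (log2 fold change -0.26, SE 0.21, adjusted p = 0.823 in edgeR). H3K4me3 over chr5:88824731-88827740 had 4.30 and 4.95 CPM in DMSO and 3.97 and 3.76 in PR-957 (log2 fold change -0.26, SE 0.20, adjusted p = 0.847 in edgeR). Neither difference passed the test. The PR-957 libraries lay below the DMSO libraries in these intervals but not in all that overlap them: H3K27ac over chr5:88825433-88826515 had 4.24 and 3.02 CPM in DMSO and 3.62 and 4.15 in PR-957, and H3K4me3 over chr5:88824793-88826306 had 2.01 and 2.33 against 2.20 and 1.45.

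Over the whole window, edgeR called 0 of 27 H3K27ac intervals, where it called 0.238% of all 74510 tested, and 0 of 35 H3K4me3 intervals, where it called 0.226% of 59229. Of these intervals, 0 reached an unadjusted p under 0.05 in edgeR. DESeq2 called 0 as well, having given an adjusted p to 4 of the H3K27ac intervals and to all 35 of H3K4me3. The median log2 fold change was -0.11 for H3K27ac and -0.02 for H3K4me3 in the window, and within 0.001 of 0 over all tested intervals of either mark. Of the promoter intervals, 15 of 19 for H3K27ac and 17 of 19 for H3K4me3 had a fold change below 0, but many of them overlap and count the same fragments. The intragenic interval of highest count, chr5:88872672-88873824, carried H3K27ac at 7.57 and 7.06 CPM in DMSO and 6.84 and 6.76 in PR-957 (log2 fold change -0.11, SE 0.23, adjusted p = 0.960 in edgeR). The difference did not pass the test, and the treatments overlapped in the neighbouring interval chr5:88872605-88873690, with 7.49 and 6.65 CPM against 7.04 and 6.47. H3K4me3 at this place, chr5:88872474-88873822, had 3.36 and 4.76 CPM in DMSO and 4.40 and 3.96 in PR-957 (log2 fold change 0.046, SE 0.20, adjusted p = 0.981 in edgeR).

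**Figure D2:**
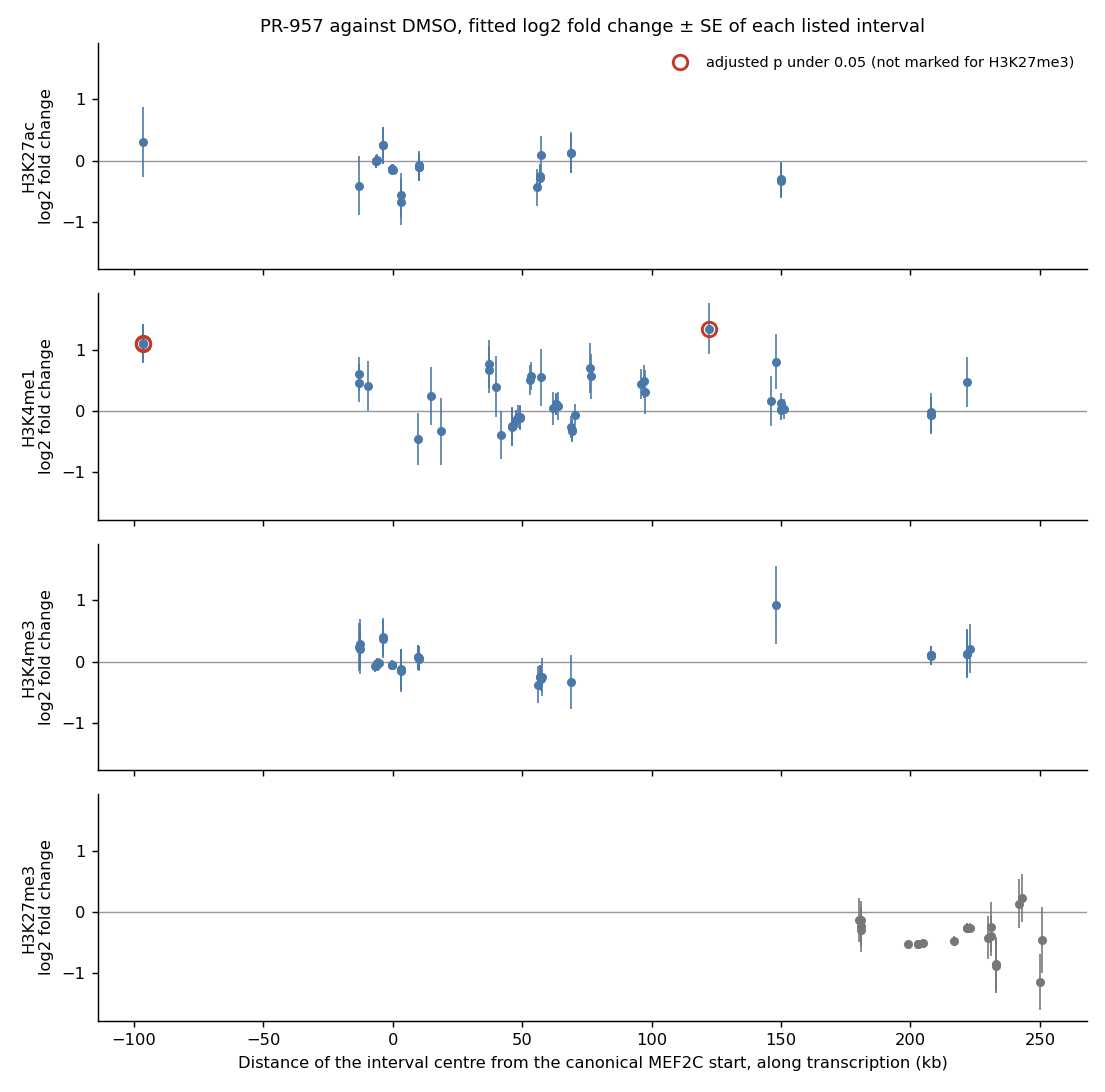
Fitted log2 fold change ± SE, PR-957 against DMSO, of each listed interval in the MEF2C window by mark, against the distance of its centre from the canonical MEF2C start in kb along transcription. Red rings mark an adjusted p under 0.05 for the 3 marks that did not choose the region, and they lie on H3K4me1 intervals at -96.6 and 122 kb.

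H3K4me1 lay over the gene body, away from the canonical start. Of its 46 intervals, 21 were within 2 kb of some annotated MEF2C start and 19 were intragenic, and the highest, chr5:88731679-88734667 near the 3′ end of the gene, had 8.33 and 7.07 CPM in DMSO and 8.28 and 8.61 in PR-957. This interval represents MEF2C in H3K4me1, since a short transcript starts beside it, and it did not pass the test (log2 fold change 0.13, SE 0.16, adjusted p = 0.729 in edgeR). The highest intragenic interval, chr5:88810668-88815213, had 8.20 and 6.40 CPM in DMSO and 8.21 and 6.09 in PR-957. Its groups overlapped as well (log2 fold change -0.058, SE 0.17, adjusted p = 0.901 in edgeR). The median over the 46 intervals was 0.11, against -0.001 over all tested intervals.

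H3K4me1 rose in PR-957 at 2 loci in edgeR. They account for 3 of the 46 intervals called, all higher, where 1.24% of all 108158 tested intervals were called higher and 1.94% in either direction. The first, chr5:88760278-88762567 beside the start of a MEF2C transcript with no defined coding sequence, had counts of 24 and 24 in DMSO and 32 and 58 in PR-957, or 0.813 and 1.00 CPM against 2.05 and 2.52. Both PR-957 libraries lay above both DMSO libraries (log2 fold change 1.35, SE 0.41, adjusted p = 0.0497). The other, chr5:88978777-88980801 in the 5′ flank within MEF2C-AS1, had counts of 46 and 34 in DMSO and 58 and 66 in PR-957, or 1.56 and 1.42 CPM against 3.72 and 2.87. It was higher in both PR-957 libraries too (log2 fold change 1.12, SE 0.31, adjusted p = 0.0305), and the third called interval overlaps it. H3K27ac at the second place, chr5:88978989-88980216, had 1.44 and 1.61 CPM in DMSO and 1.91 and 1.83 in PR-957, higher in both PR-957 libraries, and did not pass (log2 fold change 0.30, SE 0.57, adjusted p = 0.957). Both loci are shallow, and both calls were lost without DMSO replicate 1 (adjusted p 0.322 and 0.154), without DMSO replicate 2 (0.144 and 0.144) and without PR-957 replicate 1 (0.105 and 0.296). The first was also lost without PR-957 replicate 2 (0.207) and with the replicate number as a block (0.0558). Cyclic loess offsets ended both calls (adjusted p 0.152 and 0.0648). GC content moved with this result: the window's H3K4me1 intervals had a median of 37.6% GC against 46.3% over all tested, and with offsets that remove the trend on GC, chosen after seeing the data, neither locus passed (log2 fold change 1.17 and 0.65, adjusted p 0.139 and 0.347).

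**Figure D3:**
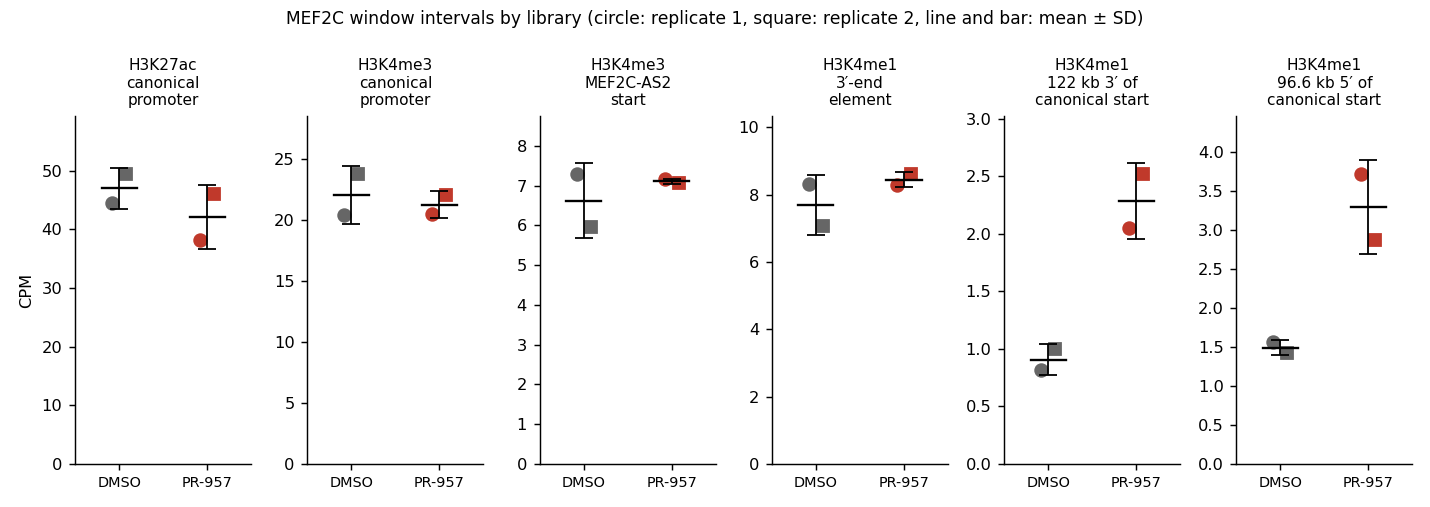
CPM of each library for 6 intervals of the MEF2C window (circle replicate 1, square replicate 2, line and bar mean ± SD, each panel with its own axis from 0). H3K27ac and H3K4me3 at the canonical promoter and H3K4me3 at the MEF2C-AS2 start overlap between DMSO and PR-957, as does H3K4me1 at the 3′-end element, while the H3K4me1 loci at 122 and -96.6 kb along transcription from the canonical start do not.

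The other members of the MEF2 family and the regulators of MEF2C were read at their own promoters, taking for each gene the most abundant interval no more than 2 kb from a start. All 4 family genes had H3K27ac, H3K4me1 and H3K4me3 and 0 had H3K27me3, and edgeR called 0 in any mark. Among protein-coding genes read this way, it called 0.480% in H3K27ac, 2.15% in H3K4me1, 0.219% in H3K4me3 and 11.8% in H3K27me3. MEF2C had the highest H3K27ac per kb of the family in DMSO (10.3 CPM per kb, against 6.87 for MEF2D, 4.71 for MEF2A and 4.01 for MEF2B) and the lowest H3K4me3 (4.73, against 6.56 for MEF2B, 6.69 for MEF2A and 7.42 for MEF2D). In H3K4me1 MEF2C, represented by the interval near its 3′ end, stood at 2.58 CPM per kb. This was below MEF2B (5.01) and above MEF2D (2.25) and MEF2A (0.725), and these orders were not tested. The intervals differ in width: in H3K27ac that of MEF2D was 37.5 kb, MEF2B 7.44, MEF2C 4.57 and MEF2A 3.91 kb. In H3K4me3 that of MEF2D was 20.3 kb and that of MEF2C 4.68 kb. A narrower MEF2C interval, chr5:88888792-88891180, had 7.59 CPM per kb of H3K4me3 in DMSO, above the values given for MEF2A, MEF2B and MEF2D. The place of MEF2C in H3K4me3 therefore depends on the interval taken. By CPM of the whole interval MEF2D stood above MEF2C in H3K27ac, at 257 against 47.0 in DMSO. MEF2D had 257 ± 3.99 CPM of H3K27ac in DMSO and 232 ± 13.7 in PR-957 (SD, n = 2), with an adjusted p of 0.121 in edgeR, the smallest of the family.

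The class IIa deacetylases HDAC4, HDAC5, HDAC7 and HDAC9, which bind MEF2 and repress its targets, all had H3K27ac, H3K4me1 and H3K4me3 and edgeR called 0, with median log2 fold changes of -0.03 in H3K27ac, -0.12 in H3K4me1 and -0.06 in H3K4me3. HDAC9 alone had an H3K27me3 interval, at 7.77 ± 0.662 CPM in DMSO and 7.37 ± 2.04 in PR-957 (SD, n = 2; adjusted p = 0.941 in edgeR). This interval, chr7:18084491-18088730, lay apart from those of H3K27ac (chr7:18494657-18497145) and H3K4me3 (chr7:18289650-18295280) that represent HDAC9. Of 10 kinases that act on MEF2 proteins or these deacetylases (SIK1, SIK2, SIK3, MARK2, MARK3, MAPK7, MAPK14, CAMK4, PRKD1 and PRKD2), 7 had H3K27ac, 5 H3K4me1, 8 H3K4me3 and 1 H3K27me3. EdgeR called 0 of them in any mark, and the median log2 fold changes were 0.05 in H3K27ac, -0.05 in H3K4me1 and 0.03 in H3K4me3, beside 0.00, -0.08 and -0.01 over all protein-coding genes tested. SIK1 and PRKD1 had no listed promoter interval of any mark. PRKD2, which phosphorylates class IIa deacetylases, had the smallest adjusted p of the list in both H3K27ac (0.252) and H3K4me1 (0.132).

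The loci that encode the same mature miR-9 differed in their marks. MIR9-3 had 0 H3K27me3 intervals and carried H3K4me3 at 60.1 ± 0.0377 CPM in DMSO and 57.2 ± 3.22 in PR-957 (SD, n = 2; adjusted p = 0.892 in edgeR). MIR9-1 lay in an H3K27me3 interval with 21.2 CPM per kb in DMSO, where the widest interval over MIR9-2 had 22.9, and had 985 ± 41.6 CPM in DMSO and 848 ± 35.7 in PR-957 (SD, n = 2; log2 fold change -0.22, SE 0.045, adjusted p = 0.000144 in edgeR). This call depended on the scaling. As a share of all counts MIR9-1 had 0.0957% and 0.0906% with DMSO and 0.0908% and 0.0883% with PR-957, which overlap, and the log2 fold change was -0.056 with library size only (adjusted p = 0.347 in edgeR) and 0.012 with cyclic loess (adjusted p = 0.932). It was also lost without DMSO replicate 1 (adjusted p = 0.217). EdgeR called 0 miR-9 loci in the other marks. PAX5, a B-cell transcription factor gene, also lay in a wide H3K27me3 locus. Its H3K27me3 fell from 504 ± 1.12 to 398 ± 11.5 CPM (SD, n = 2; log2 fold change -0.34, SE 0.048, adjusted p = 5.74e-09 in edgeR). The log2 fold change was -0.18 with library size only (adjusted p = 0.000215) and -0.15 with cyclic loess (adjusted p = 0.00101). Inside this locus a PAX5 start carried H3K4me3, at 15.8 ± 0.711 CPM in DMSO and 16.5 ± 0.396 in PR-957. H3K4me1 there had 6.61 ± 0.237 CPM in DMSO and 5.16 ± 0.761 in PR-957, and edgeR called neither mark (adjusted p 0.934 and 0.336). Of the 9 annotated genes that overlap the MEF2C window, 6 noncoding genes had a start by the H3K27me3 domain, and MEF2C-AS1, which starts beside the canonical MEF2C start in the opposite direction, shared its H3K27ac and H3K4me3 interval.

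Genes were compared with MEF2C by the mean log2 CPM per kb of H3K27ac, H3K4me1 and H3K4me3 in both treatments, 6 values in all. Each value was that of the interval representing the gene in that mark. The protein-coding genes most like MEF2C by these values were DGAT2, MATR3 and ESYT2. Their Euclidean distances were 0.231, 0.273 and 0.302, against a median of 2.35 over 7190 genes with all 3 marks. DGAT2 had 3.45 and 3.39 for H3K27ac in DMSO and PR-957, where MEF2C had 3.43 and 3.27. The H3K4me1 values of MEF2C came from chr5:88731679-88734667 near the 3′ end of the gene, 150 kb from the canonical start. They do not describe the canonical promoter, where no H3K4me1 interval was listed.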

How the data were processed

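MOLM-13 cells given DMSO or PR-957 were profiled by Cut&Tag for 4 histone marks, with 2 libraries per treatment and mark and 16 in all. Alignment by the authors was to hg38 with Bowtie2, and their methods name MACS2 or SEACR for peaks. The submitters' processing notes list Bowtie2 2.2.5, SEACR 1.3, Trimmomatic 0.39, Picard 2.27.1, SAMtools 1.7 and deepTools 3.5.1. The deposited values are raw counts per listed interval, with 1 interval list per mark, not normalized. The counter, the handling of duplicates and the coordinate base are not given in the sources used here, and coordinates are printed as listed. The 2 IgG samples were not analysed here. Listed intervals overlap, so 1 fragment can be counted more than once.

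All intervals of a mark were fitted together: filterByExpr (minimum count 10), TMM, and the quasi-likelihood test of edgeR 4.0.16 in R 4.3.3 with Benjamini-Hochberg adjustment at 0.05 over all tested intervals, PR-957 against DMSO, 2 libraries against 2. An exact permutation test of 2 against 2 cannot go below 0.333. The test was checked on simulated counts. Genes were taken from GENCODE release 44. Sequences were read from RefSeq tables (GRCh38.p14).

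The members and lists were chosen with earlier results of these data known. Named were, per mark and class, the interval with the highest mean count and 1 interval per called locus, the genes of the lists (MEF2 family, class IIa deacetylases, kinases, miR-9 loci, neighbours, markers) and the 3 genes nearest to MEF2C (prior 0.5 on log2 CPM per kb). The second start group, the internal promoter and the 3 blocks were added after their values were seen. Alternatives were other scalings, DESeq2 1.42.0, count filters, the replicate block, leaving out each library, other windows and 1 interval per locus. Offsets against GC (loess span 0.3) were added after seeing the data. The result of 1 marker of another lineage is not reported here.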

Additional observations from a re-analysis of the deposited data

How the results depend on the processing

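The domain was chosen by its H3K27me3 contrast in these same libraries, so refits of them describe it and lend no further support. Its H3K27me3 log2 fold change stayed below 0 in every setting run. It was -0.51 under TMM, -0.35 with library size only, -0.29 with cyclic loess offsets, -0.44 with a mean count of at least 50 and -0.42 with offsets against GC, and ran from -0.55 to -0.48 when a library was left out. The 5 H3K27me3 intervals called became 8 without a count filter, 5 to 8 without a library and 1 with 1 interval per locus. The 3 H3K4me1 calls became 0 with cyclic loess or GC offsets, 1 with 50 kb either side and 0 to 3 without a library, and DESeq2 gave none of the 46 intervals an adjusted p. Small values that did not pass the test changed sign: H3K4me1 representing MEF2C went from 0.13 to -0.090 with GC offsets, and H3K4me1 in the domain from -0.071 to 0.066 with GC offsets and from -0.32 to 0.18 without a library. Without a library, H3K4me3 ran from -0.16 to 0.057 at the MEF2C promoter and from -0.037 to 0.26 in the domain. H3K27ac at the promoter ran from -0.29 to -0.023 over all settings, with adjusted p 0.594 to 0.999. H3K27me3 at MIR9-1 went from -0.22 to -0.056 when scaled by library size alone, and cyclic loess gave 0.012. Why values moved was not tested. No H3K27ac interval in the domain was listed, so that comparison could not be run.

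The labels tie same-numbered libraries by nothing but the number, and 2 pairs per mark are too few to show a pairing. Their deviations correlated at -0.00886 in H3K27ac, -0.00688 in H3K27me3, 0.00682 in H3K4me1 and 0.167 in H3K4me3. With the replicate number as a block, the domain had -0.51, H3K4me1 calls went from 3 to 2, and 5 H3K27me3 and 0 H3K27ac and H3K4me3 intervals were called.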
